A study of Mus musculus with 6 samples.

Results

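Histone genes of the replication clusters were compared between B lineage cells of the small-intestinal lamina propria (LP) and of the bone marrow (BM) in mice. Members were all array probe sets with a gene symbol of the families H1f, H2ac, H2bc, H3c or H4c or an older Hist1h to Hist4h name, and several symbols on 1 probe set were allowed. This rule took 56 of 35556 probe sets, and it used no measured value. By the gene family of most of their symbols, 8 were of class H1, 6 of H2A, 16 of H2B, 13 of H3 and 12 of H4. The remaining probe set, with the symbols H2bc6 and H1f4, spans 2 classes. The cells came from RAG2-GFP/129Sve mice of postnatal days 17 to 25, which carry a green fluorescent reporter of the recombinase gene Rag2. Both tissues were taken from such mice, and GFP-positive cells were sorted, so the reporter and the sort are shared by both groups. Each tissue gave 3 pools and each pool 1 array, and each experiment drew on 8 to 12 mice. Because the animals were pooled, the spread between arrays is that between independent experiments and not between mice.

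Chromatin packs DNA around nucleosomes, which are built from the core histones H2A, H2B, H3 and H4, and the linker histone H1 binds the DNA between them. Most of these proteins come from many near-identical gene copies in clusters, which are read mainly in S phase, when new DNA has to be packaged. Their mRNAs end in a stem-loop bound by SLBP in place of a poly(A) tail, and the factor NPAT, activated by cyclin E and CDK2, switches the clusters on. Developing B cells divide in bursts between rounds of antigen receptor recombination, so S-phase transcripts change with stage in the bone marrow.

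Near-identical copies limited what the arrays could separate. A single symbol was given to 30 members, 2 symbols to 2 members, and 11 to 20 symbols to the other 24. The 66 histone symbols on the members include 30 with a probe set of their own and 36 that appear only on shared probe sets, and values on shared probe sets cannot be assigned to 1 gene. Of 67 protein-coding RefSeq genes that match the rule, 66 are on a member, and H1f0 was not analysed here. Among the members, 2 pairs of shared probe sets, 1 of H4 and 1 of H2B, held the same 6 values, which leaves 54 distinct profiles. By RefSeq, 23 of the 30 single genes lie on chromosome 13, 4 on chromosome 3, 2 on chromosome 6 and 1 on chromosome 15. In 12 members, 11 of them single genes, the mean over the arrays was below 5.34, the lowest median of any array, so a difference there would be hard to measure.

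The arrays were not alike within the lamina propria. LP pools 1 and 2 had interquartile ranges of 2.00 and 1.94 log2 units over all probe sets, and LP pool 3 had 2.47, against 2.41 to 2.46 in the BM pools. Differences are therefore given for LP pool 3 alone beside the main results. Markers of the sorted lineage were present in both tissues, with summed log2 levels of 9 B lineage genes of 87.6 to 89.2 in LP pools and 86.2 to 93.9 in BM pools. Of these, 8 had a negative and 1 a positive difference, with a median of -0.22, or -0.16 in LP pool 3. Rag1 differed by -1.05 without overlap (adjusted p = 0.386 in limma). Summed levels of 10 intestinal epithelium markers were 52.8 to 56.9 in LP pools and 49.96 to 50.2 in BM pools, and those of 9 T cell markers were 46.9 to 50.2 and 45.2 to 46.5. All 10 epithelial, all 9 T cell and all 5 erythroid markers and 7 of 8 stroma and endothelium markers had a positive difference, against 65.2% of all probe sets. Most of these markers had a BM mean below 6, so that share is not a background of their level. Per unit of BM mean from 2 to 6, all probe sets had median differences of 0.26 to 0.49 in LP pools 1 and 2. In LP pool 3 they were -0.02 to 0.01. The markers' LP pool 3 medians were 0.30 for epithelium, 0.21 for T cells, -0.16 for erythroid cells and 0.02 for stroma and endothelium. Whether the markers differed from probe sets of the same level was not tested. Summed levels in LP and BM pools were 46.0 to 50.8 and 45.7 to 46.1 for stroma and endothelium, 25.6 to 28.7 and 25.6 to 26.3 for the erythroid markers, 36.8 to 38.9 and 36.4 to 39.0 for 7 macrophage markers, and 39.1 to 43.8 and 40.1 to 49.8 for 8 granulocyte markers. Granulocyte markers had 4 positive and 4 negative differences, with a median of 0.02, and S100a9 differed by -2.00 without overlap. Macrophage markers had 4 positive and 3 negative differences, and Csf1r, at 0.71, and Cd68, at -0.71, were without overlap. No marker was at 0, and the part of these cell types in the histone results was not tested. In RNA from whole sorted pools, fewer cells that express a gene and less RNA per cell cannot be told apart.

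No member passed the test of LP against BM pools, and the class medians did not lie on the same side. Members of the H4 class had a median log2 difference of -1.83 (LP minus BM), against 0.78 for H3, 0.42 for H2A, 0.35 for H1 and 0.19 for H2B. These medians count shared probe sets with the same symbols separately. With 1 symbol per probe set, the H4 and H3 medians were -0.12 and -0.11. In LP pool 3 alone, the class medians were -0.74 for H4, 0.18 for H3, 0.05 for H2A, 0.045 for H1 and 0.25 for H2B. Over all 56 members the median was 0.18, with 35 positive and 21 negative differences, and over all 35556 probe sets it was 0.20, with 65.2% positive. In limma, with adjustment over all probe sets, 0 members were called higher or lower at an adjusted p of 0.05. The smallest adjusted p was 0.412, for H2bc21, and the background was 0% called higher and 0.00281% called lower. At an unadjusted p of 0.05, 1 member was higher (background 4.1%) and 7 were lower (background 6.76%), and 6 of those 7 were H4 probe sets, 5 of them shared and with the same symbols. Every LP pool was above every BM pool in 3 members (background 13.2%) and below every BM pool in 2 (background 7.06%), shares of the members that do not exceed the background. With 1 array left out, the count of 5 in either direction was 22 of 56 without LP pool 3 (background 62.1%), 9 without BM pool 1 (background 28.7%), 13 without BM pool 2 (background 27.2%) and 15 without BM pool 3 (background 30.4%). In none of these 4 settings did the members' share exceed the background.

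Single arrays moved several class medians. The H4 median stayed between -2.49 and -1.39 whichever array was left out. The H3 median was 0.18 without LP pool 2 and 0.42 without BM pool 3, and the H2A median was 0.15 without BM pool 3. The H1 median was 0.16 without LP pool 1 and 0.56 without LP pool 3. The H2B median changed sign, to -0.65 without BM pool 3 and -0.35 without LP pool 2, and was 0.51, 0.05, 0.28 and 0.60 without LP pool 1, LP pool 3, BM pool 1 or BM pool 2.

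**Figure D1:**
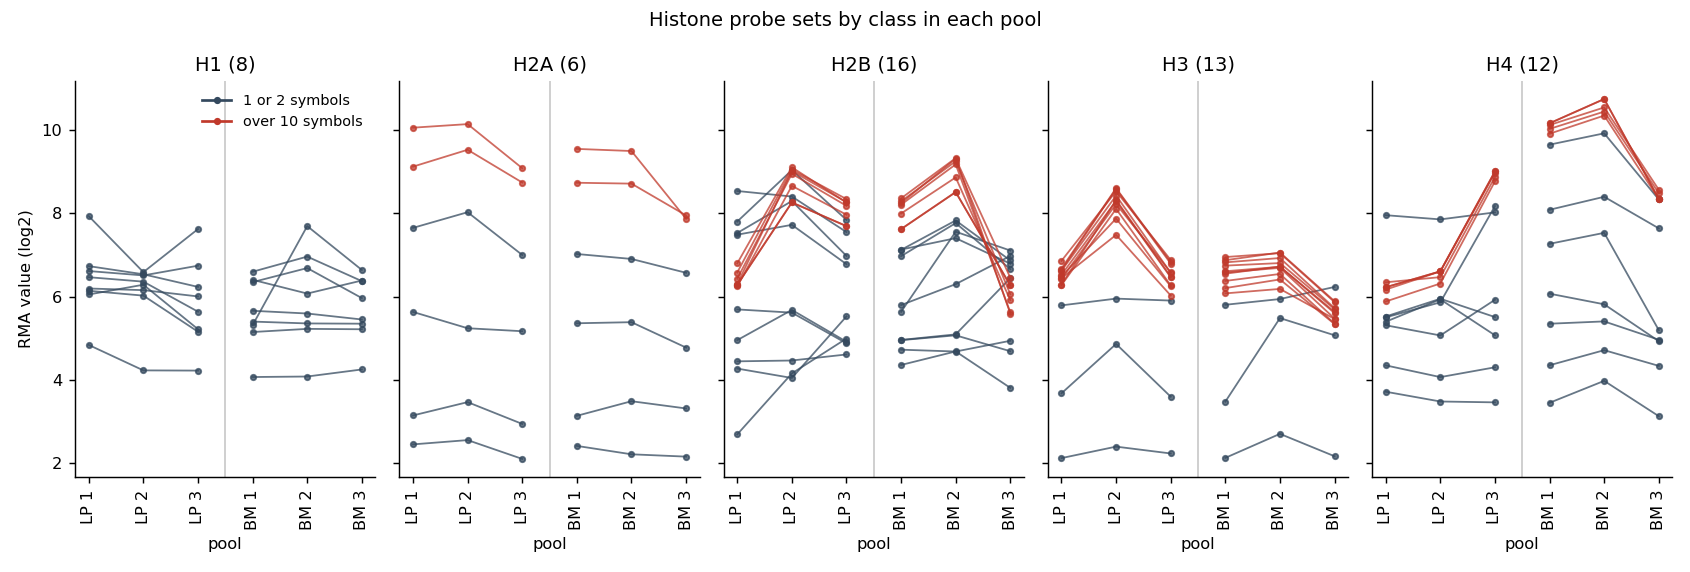
Log2 RMA values (vertical axis) of the histone probe sets in each pool (horizontal axis, LP pools left of BM pools), with 1 panel per class. Each line joins the values of 1 probe set within a tissue and carries no order between pools, dark for 1 or 2 symbols and red for over 10. The 5 shared H4 probe sets lie together, at 5.88 to 6.61 in LP pools 1 and 2 and at 8.77 to 9.01 in LP pool 3, against 8.35 to 10.75 in BM pools.

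H4 gave the largest differences among the members. H4, the partner of H3 at the core of the nucleosome, is encoded by many genes with the same protein product. H4c4 had values of 5.50, 5.87 and 8.18 in LP pools 1 to 3, against 9.65, 9.93 and 8.34 in BM pools 1 to 3. All LP pools lay below all BM pools, but LP pool 3 lay next to BM pool 3. H4c4 averaged 6.52 ± 1.45 in LP pools and 9.31 ± 0.85 in BM pools (SD, n = 3 each), a log2 difference of -2.79 (95% interval -4.70 to -0.88, adjusted p = 0.417 in limma). The LP level was 0.145 times the BM level.

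The 5 shared H4 probe sets, each with the same 11 symbols (H4c1, H4c2, H4c3, H4c4, H4c6, H4c8, H4c9, H4c11, H4c12, H4c17 and H4c18), followed H4c4. Their median was 6.23, 6.61 and 8.98 in LP pools 1 to 3, against 10.13, 10.55 and 8.35 in BM pools 1 to 3. Pools overlapped in all 5, because LP pool 3 lay above BM pool 3 in each. Their differences were -2.55 to -2.43, each with an adjusted p of 0.436 in limma. Since these probe sets hold H4c4 among their symbols, they are not independent of it.

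Among the other H4 genes with a probe set of their own, differences were smaller and lay on both sides of 0. H4c6 had values of 5.31, 5.07 and 5.93 in LP pools, against 7.27, 7.53 and 5.20 in BM pools, a difference of -1.23 (95% interval -2.79 to 0.32). Its BM pool 3 lay below 2 of the LP pools, so the tissues overlapped. H4c9 had values of 5.52, 5.95 and 5.51 in LP pools, against 5.35, 5.41 and 4.97 in BM pools, a difference of 0.42 (95% interval -0.15 to 0.99). Here every LP pool lay above every BM pool, the opposite order to H4c4. H4c14, on chromosome 3, had values of 7.96, 7.86 and 8.03 in LP pools, against 8.09, 8.40 and 7.64 in BM pools, a difference of -0.10. H4c3, H4c8 and the probe set of H4c17 and H4c11 differed by -0.14, 0.03 and -0.23. With 1 symbol per probe set, the H4 median over 6 genes was -0.12, against -2.47 over the 5 shared probe sets.

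The promoters of 3 H4 genes that differed in opposite ways or by unequal amounts are shown from 130 bases before the RefSeq transcript start to the base before it. They were read from RefSeq (GRCm38.p6) at chr13:23581438-23581567 on the plus strand for H4c4, and on the minus strand at chr13:23551669-23551798 for H4c6 and chr13:22041363-22041492 for H4c9. Capitals mark matches on either strand to the CCAAT box, the TATA box letters TATAAA, the E2F-type word TTCCCGC and the H4 word GGTCCG.
H4c4: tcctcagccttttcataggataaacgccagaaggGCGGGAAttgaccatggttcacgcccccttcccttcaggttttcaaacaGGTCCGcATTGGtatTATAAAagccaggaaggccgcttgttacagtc
H4c6: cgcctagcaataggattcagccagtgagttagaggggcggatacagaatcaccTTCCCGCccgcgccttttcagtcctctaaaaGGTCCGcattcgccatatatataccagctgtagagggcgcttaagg
H4c9: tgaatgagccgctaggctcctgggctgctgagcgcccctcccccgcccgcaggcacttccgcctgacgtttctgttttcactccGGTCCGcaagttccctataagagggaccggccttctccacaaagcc
GGTCCG closes the subtype-specific element of H4 promoters, which is the binding site of the H4 activator HINFP. It was added to the search after the promoters had been read. It starts 46 or 47 bases before the transcript start in all 3 genes shown, so H4c4, the lowest in LP against BM, and H4c9, with LP above BM, share it. The difference of H4c9, 0.42, is ordinary for its level. All probe sets with a BM mean of 5 to 6 had a median of 0.27 and a 95th percentile of 0.71. Whether GGTCCG bears on the differences was not tested. Next to it, H4c4 holds ATTGG, the reverse complement of CCAAT, and TATAAA, and neither word is in the 130 bases shown of H4c6 and H4c9. In the longer window from 250 bases before to 50 after the start, TATAAA is in all 3 genes and CCAAT in H4c4 alone of the 3. No marked words overlap.

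The H2B class had single genes on both sides and shared probe sets near 0. H2B pairs with H2A in the nucleosome. H2bc21, which in mouse olfactory neurons is known as a replication-independent variant, had values of 4.27, 4.05 and 5.53 in LP pools, against 5.80, 6.30 and 6.98 in BM pools. All LP pools lay below all BM pools, and H2bc21 averaged 4.62 ± 0.80 in LP pools and 6.36 ± 0.59 in BM pools (SD, n = 3 each). The difference was -1.74 (95% interval -2.92 to -0.57, adjusted p = 0.412 in limma). H2bc4 had values of 2.69, 4.16 and 4.995 in LP pools, against 4.961, 5.09 and 6.45 in BM pools, a difference of -1.55 (95% interval -3.19 to 0.08), with LP pool 3 just above BM pool 1. The difference of H2bc4 was -0.92 without LP pool 1. In RefSeq, H2bc21 spans 2667 bases and H2bc4 8282 bases, and H2bc22 spans 14079 bases, while the other 6 single H2B genes span 432 to 522 bases. H2bc22 had values of 5.69, 5.62 and 4.88 in LP pools, against 4.73, 4.68 and 4.94 in BM pools, a difference of 0.61 with overlapping pools. H2bc4 and H2bc22 had means over the arrays of 4.72 and 5.09, below 5.34, so their differences would be hard to measure.

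H2bc8 and H2bc9, short H2B genes of chromosome 13, lay higher in LP pools. H2bc8 had values of 7.81, 9.04 and 7.85 in LP pools, against 5.64, 7.56 and 7.11 in BM pools. The tissues did not overlap, and H2bc8 averaged 8.23 ± 0.70 in LP pools and 6.77 ± 1.01 in BM pools (SD, n = 3 each). The difference was 1.46 (95% interval 0.04 to 2.88, adjusted p = 0.436 in limma), a level 2.76 times that of BM pools, and it was 0.90 without BM pool 1, the lowest array. H2bc9 had values of 8.54, 8.41 and 7.55 in LP pools, against 7.13, 7.83 and 6.87 in BM pools, a difference of 0.89 (95% interval -0.02 to 1.80). Its LP pool 3 lay below BM pool 2. The other 4 single H2B genes, H2bc1, H2bc3, H2bc14 and H2bc18, had differences of 0.22 to 0.47.

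Promoters of H2bc8 and H2bc9 are shown over the same window, since these 2 genes gave the largest positive differences among the single H2B genes. They lie at chr13:23571270-23571399 on the plus strand and chr13:23543445-23543574 on the minus strand of GRCm38.p6 (RefSeq). Capitals mark matches on either strand to TTTGCAT, the core of the octamer that the POU factors OCT1 and OCT2 bind, and to the 3 other words TATAAA, as above, CCAAT, as above, and also GGTCCG. No marked words overlap.
H2bc8: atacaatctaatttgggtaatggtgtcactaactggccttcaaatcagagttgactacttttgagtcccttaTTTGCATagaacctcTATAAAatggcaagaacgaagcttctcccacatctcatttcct
H2bc9: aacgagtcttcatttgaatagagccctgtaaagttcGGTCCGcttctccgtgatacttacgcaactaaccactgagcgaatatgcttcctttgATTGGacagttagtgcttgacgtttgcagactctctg
H2bc8 holds the octamer core and TATAAA in this stretch, and H2bc9 holds neither but has CCAAT on the opposite strand.

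The 7 shared H2B probe sets, with 14 or 15 symbols each, differed between pools of 1 tissue by more than between the tissues. They share H2bc3, H2bc4, H2bc6, H2bc7, H2bc8, H2bc9, H2bc11, H2bc12, H2bc13, H2bc14, H2bc15, H2bc22, H2bc23 and H4bc24, and 4 of them also carry H2bc1. Their median was 6.31, 8.95 and 8.18 in LP pools 1 to 3, against 8.21, 9.18 and 6.06 in BM pools 1 to 3. LP pool 1 and BM pool 3 were the low arrays, 1 in each tissue, and the differences were -0.05 to 0.19.

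Shared H3 probe sets lay higher in LP pools, mainly through LP pool 2. H3 carries many of the tail modifications that mark active and silent chromatin. The 10 shared probe sets have the same 12 symbols, H3c1, H3c2, H3c3, H3c4, H3c6, H3c7, H3c8, H3c10, H3c11, H3c13, H3c14 and H3c15. Their median was 6.51, 8.31 and 6.53 in LP pools 1 to 3, against 6.60, 6.72 and 5.62 in BM pools 1 to 3. LP pool 2 was the highest array and BM pool 3 the lowest in this median, while LP pools 1 and 3 lay just under BM pools 1 and 2. The differences were 0.74 to 0.88 with overlapping pools, the smallest adjusted p in limma being 0.439. In the 5 of them with the smallest p, the differences were 0.20 to 0.38 without LP pool 2 and 0.46 to 0.56 without BM pool 3. The single genes were on the other side of 0: H3c15 had values of 3.68, 4.86 and 3.60 in LP pools, against 3.48, 5.49 and 5.07 in BM pools, a difference of -0.63. H3c4 and H3c7 differed by -0.11 and -0.08.

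**Figure D2:**
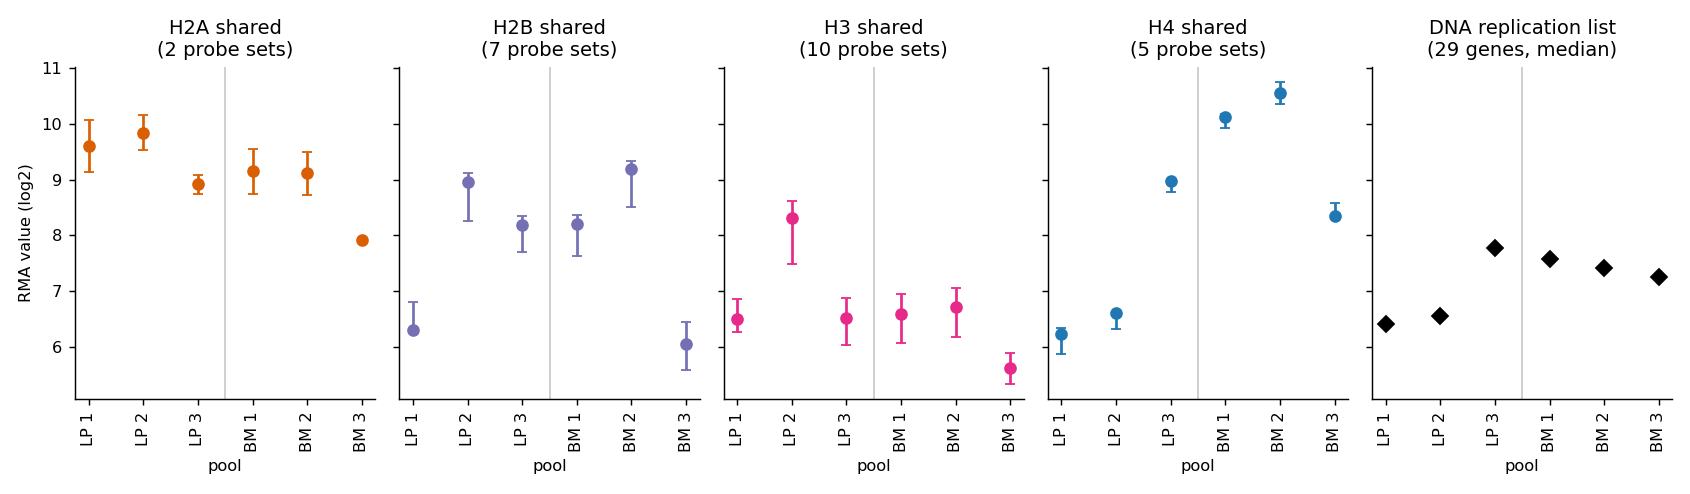
Log2 RMA values (vertical axis) of the shared probe sets by class in each pool (horizontal axis, LP pools left of BM pools). H4 is lowest in LP pools 1 and 2, with medians of 6.23 and 6.61, H2B is lowest in LP pool 1 and BM pool 3, H3 is highest in LP pool 2, and H2A is lowest in BM pool 3.

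Shared H2A probe sets also lay somewhat higher in LP pools. The 1 with 19 symbols had values of 9.13, 9.53 and 8.74 in LP pools, against 8.74, 8.72 and 7.95 in BM pools, a difference of 0.66 (95% interval -0.12 to 1.44). No pools overlapped, though LP pool 3 and BM pool 1 both round to 8.74, and the difference was 0.41 without BM pool 3. The 1 with 20 symbols had values of 10.06, 10.15 and 9.09 in LP pools, against 9.55, 9.50 and 7.87 in BM pools, a difference of 0.79 with overlap, or 0.24 without BM pool 3. Both carry H2ac4, H2ac6, H2ac7, H2ac8, H2ac10, H2ac11, H2ac12, H2ac13, H2ac15, H2ac18, H2ac19, H2ac20, H2ac21, H2ac22, H2ac23, H2ac24, H2ax, H2af-ps2 and the H3 gene H3c4, and the second also carries H2aj. H2ac1, a testis variant of H2A, had values of 7.65, 8.03 and 7.003 in LP pools, against 7.03, 6.91 and 6.57 in BM pools, a difference of 0.73 (95% interval -0.03 to 1.48), with LP pool 3 just under BM pool 1. H2ac15, H2ac8 and H2ac4 differed by 0.17, 0.11 and -0.13.

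No linker H1 gene separated the tissues, and pools overlapped in all 8. H1f2, a somatic linker histone of the chromosome 13 cluster, had values of 7.94, 6.59 and 7.63 in LP pools, against 5.32, 7.70 and 6.64 in BM pools, a difference of 0.83 (95% interval -0.76 to 2.42). BM pool 1 was the lowest array and BM pool 2 near the top, and the difference was 0.21 without BM pool 1 and 1.40 without BM pool 2. The other cluster genes H1f3, H1f1 and H1f5 differed by 0.30, 0.17 and -0.02, with H1f5 at 6.62, 6.51 and 6.75 in LP pools, against 6.60, 6.96 and 6.37 in BM pools. Germline variants were H1f6 and H1f7 of the testis and H1f8 of the oocyte, which differed by 0.65, -0.17 and 0.41, and H1f10, which is made outside S phase as well, by 0.59. For H1f6, values were 6.05, 6.29 and 5.22 in LP pools, against 5.15, 5.23 and 5.22 in BM pools, so LP pools 1 and 2 were the high arrays and LP pool 3 lay with the BM pools. H1f10 followed the same order, at 6.47, 6.36 and 5.64 in LP pools, against 5.66, 5.60 and 5.45 in BM pools, and so did H1f8 in LP pools 1 and 2, at 6.14, 6.03 and 5.16 in LP pools, against 5.40, 5.36 and 5.35 in BM pools. H1f3 had 4.84, 4.23 and 4.22 in LP pools, against 4.07, 4.08 and 4.25 in BM pools, H1f1 had 6.74, 6.54 and 6.24 against 6.35, 6.69 and 5.97, and H1f7 had 6.20, 6.16 and 6.01 against 6.41, 6.08 and 6.39. The probe set of H2bc6 and H1f4 differed by 0.06.

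The promoter of H1f2, which gave the largest H1 difference, lies at chr13:23738677-23738806 on the plus strand of GRCm38.p6 (RefSeq). Capitals mark AAACACA, the H1 box of linker histone promoters, and CCAAT, and they do not overlap.
H1f2: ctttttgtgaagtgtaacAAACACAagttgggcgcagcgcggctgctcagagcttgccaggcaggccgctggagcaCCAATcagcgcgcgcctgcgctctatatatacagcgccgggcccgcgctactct
From 250 bases before to 50 after the start, 61 histone symbols on the members had a promoter, and 27025 promoters of all genes were searched. AAACACA was in 5 of 9 H1 promoters, 2 of 17 H2A, 2 of 14 H2B and none of the H3 and H4 promoters, against 7.14% of all. CCAAT was in 7 of 9 H1 and in all 17 H2A, 14 H2B and 10 H3 promoters but in 3 of 11 H4 promoters, against 37.9% of all. TTTGCAT was in 6 of 17 H2A, 6 of 14 H2B and 1 of 11 H4 promoters, against 4.59% of all. TTCCCGC was in 5 of 11 H4 promoters and in no other class, against 4.66% of all, and GGTCCG was in 10 of 11 H4 promoters, against 8.39% of all. TATAAA was in 4 of 9 H1, 11 of 17 H2A, 7 of 14 H2B, 4 of 10 H3 and 8 of 11 H4 promoters, against 14.2% of all, and TTGGCGC, a second E2F-type word, was in 1 H1 and 1 H2A promoter, against 2.54%. GGTCCG lay 46 or 47 bases before the start in H4c3, H4c4, H4c6, H4c9, H4c17 and H4c18. Their own differences, where measured, lay on both sides of 0, but the positive one, of H4c9, was ordinary for its level. These words describe the sequences, and a word that is not in the window says nothing of the factor.

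The H4 differences depended on LP pools 1 and 2. Against the BM mean, H4c4 was -3.80 in LP pool 1, -3.44 in LP pool 2 and -1.13 in LP pool 3. The shared H4 probe sets were -3.66 to -3.31 in LP pool 1, -3.22 to -3.14 in LP pool 2 and -0.78 to -0.75 in LP pool 3. Without LP pool 3, 10 members were called in limma: H4c4 at -3.62 (adjusted p = 0.0333), 3 of the shared H4 probe sets at -3.44 to -3.25, and H2bc21 at -2.20 were lower, while H1f8 at 0.71, H1f10 at 0.85, H2bc22 at 0.87, H1f6 at 0.97 and H2ac1 at 1.01 were higher. The background was then 7.68% of probe sets called higher and 7.05% called lower, so 5 of 56 members in each direction is near it. In LP pool 3 itself, H1f6, H1f10, H2bc22 and H2ac1 were 0.02 to 0.17 above the BM mean and H1f8 was 0.21 below it.

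Probe sets with a BM mean of 7 to 10 lay lower in LP pools 1 and 2, with medians of -1.41 to -0.55 per level and pool, and above a BM mean of 10 the medians were -0.18 to 0.04. The members were set beside others of the same level. For the 979 probe sets with a BM mean of 9 to 10, the median difference was -0.54 over the 3 LP pools, and the 5th percentile was -2.76. The shared H4 probe sets, at -2.55 to -2.43, lay inside that range, and H4c4, at -2.79, just outside it. In LP pool 3 the median at this level was 0.02 and the 5th percentile -0.93, so H4c4, at -1.13, was below it and the shared H4 probe sets were not. For the 5631 probe sets with a BM mean of 6 to 7, the 95th percentile was 0.71 and the 5th was -1.57. With all 3 LP pools, H2bc8, at 1.46, H1f2, at 0.83, and H2ac1, at 0.73, were above that range. H2bc21, at -1.74, was below it. In LP pool 3 the range was -1.03 to 0.98. H2bc8, at 1.08, and H1f2, at 1.07, were above it, but H2ac1, at 0.17, and H2bc21, at -0.83, were inside it. All shared H3 probe sets with a BM mean of 6 to 7 were also above 0.71, but in LP pool 3 they were 0.16 to 0.30 above the BM mean, inside its range. Members of other levels were outside the range too with all 3 LP pools. H2bc9, at 0.89, was above 0.60 for a BM mean of 7 to 8. Both shared H2A probe sets, at 0.664 and 0.79, were above 0.663 for 8 to 9. For 5 to 6, shared H3 probe sets at 0.74 and 0.88 were above 0.71, and H2bc4, at -1.55, was below -0.95. In LP pool 3 these members of other levels were inside the range. H3c15, inside it with all 3 LP pools, was at -1.08 in LP pool 3, below -0.79 for a BM mean of 4 to 5. Such a range leaves some probe sets outside at every level by its definition. Whether members lay outside more often than other probe sets was not tested.

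**Figure D3:**
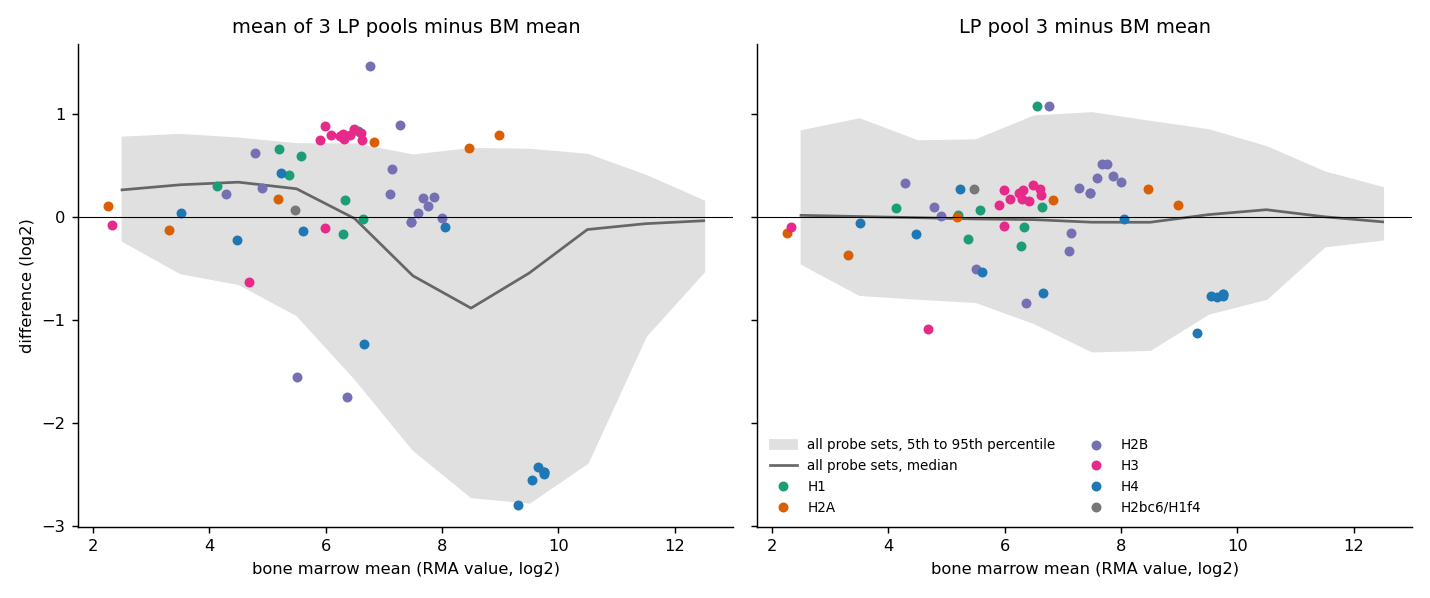
Log2 difference LP minus BM (vertical axis) against the BM mean (horizontal axis, log2 RMA value) for each histone probe set, coloured by class, with the median and the 5th to 95th percentile of all probe sets per unit of BM mean. With all 3 LP pools (left) the median of all probe sets falls to -0.88 for a BM mean of 8 to 9, whereas with LP pool 3 alone (right) it is -0.05 there.

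BM pool 3 was the lowest of the 6 arrays in 33 of the 56 members, against 23.3% of all probe sets. This held for both shared H2A, all 7 shared H2B and all 10 shared H3 probe sets, and for none of the 5 shared H4 probe sets. The median of 29 DNA replication genes was 6.42, 6.55 and 7.77 in LP pools 1 to 3, against 7.58, 7.42 and 7.26 in BM pools 1 to 3. In that median LP pools 1 and 2 are the low arrays, as in the H4 class, and BM pool 3 lies above both. LP pool 3 is the highest array there, but in the H4 class its median, 8.10, lay below 8.87 and 9.16 in BM pools 1 and 2. Low values in LP pools 1 and 2 were also common at that level. All probe sets with a BM mean of 7 to 8 had medians of -0.84 and -0.92 in these pools.

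Genes that make and process histone mRNA mostly lay lower in LP pools, and none of those listed passed the test. Of 25 measured, 18 had a negative and 7 a positive difference, with a median of -0.32, or -0.13 in LP pool 3. At an unadjusted p of 0.05, 5 were lower (background 6.76%) and 1 higher (background 4.1%). Of all probe sets, 34.8% had a negative difference, and for a BM mean of 7 to 10 their medians per level were -0.88 to -0.54. Whether this list or those below differed from probe sets of the same level was not tested. Hinfp, the H4 promoter factor, had values of 4.79, 4.98 and 5.44 in LP pools, against 5.68, 6.05 and 6.10 in BM pools, a difference of -0.87 (95% interval -1.49 to -0.26, adjusted p = 0.423 in limma) with no overlap. Ccne2, a cyclin that activates CDK2 at the start of S phase, differed by -2.49 (95% interval -4.24 to -0.75), Casp8ap2, a cleavage factor for histone pre-mRNA, by -2.42 (95% interval -4.44 to -0.40), and Snrpd3, an Sm protein of the U7 particle that guides this cleavage, by -2.08 (95% interval -3.70 to -0.46). In LP pool 3 these 4 genes were -0.81 to -0.50 from the BM mean. Snrpb, another Sm protein of the U7 particle and the 1 gene higher at an unadjusted p of 0.05, had values of 6.73, 6.996 and 7.02 in LP pools, against 6.27, 6.55 and 5.97 in BM pools, a difference of 0.65 (95% interval 0.09 to 1.203) without overlap. Lsm10 and Lsm11, which are specific to that particle, differed by -0.23 and 0.11 with overlap. Slbp, the stem-loop binding protein, had values of 8.09, 7.27 and 8.31 in LP pools, against 8.47, 8.39 and 8.83 in BM pools, without overlap. Snrpb, Lsm10, Lsm11 and Slbp were named after their values were seen.

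Other gene lists around histones gave 0 calls each. The background for their counts was 34.8% of all probe sets with a negative difference. At an unadjusted p of 0.05 it was 6.76% lower and 4.1% higher. Of 23 histone chaperone and acetylation genes, 19 had a negative difference, with a median of -0.48, or 0.05 in LP pool 3, and 3 were lower at an unadjusted p of 0.05. These 3 were Hat1, which acetylates new H4, at -2.44 (95% interval -4.66 to -0.21), Mis18a, needed to load the centromeric H3 variant, at -0.87 (95% interval -1.59 to -0.14), and Atrx, a remodeller that loads H3.3, at -2.05 (95% interval -3.93 to -0.17). In LP pool 3 they were -0.96, -0.45 and -0.36 from the BM mean. Atrx had overlapping pools and was named after its values were seen. Chaf1b, a subunit of the assembly factor CAF-1, differed by -0.51 (95% interval -1.16 to 0.13) without overlap. Among 29 DNA replication genes, 24 had a negative difference, with a median of -0.56, or 0.09 in LP pool 3, and at an unadjusted p of 0.05 5 were lower and 1 higher. Prim1, a primase subunit, differed by -2.61 (95% interval -4.63 to -0.58), Cdc6, which licenses origins, by -0.84 (95% interval -1.44 to -0.24), Rpa2, which binds single-stranded DNA, by -0.65 (95% interval -1.13 to -0.18), and Cdt1, a partner of CDC6, by 0.47 (95% interval 0.03 to 0.91). In LP pool 3 alone, Prim1, Cdc6, Rpa2 and Cdt1 were -0.60, -0.50, -0.65 and 0.52 from the BM mean. Of 19 mitosis genes 14 had a negative difference, with a median of -0.35, or -0.14 in LP pool 3, and Top2a, which untangles DNA, differed by -1.84 (95% interval -3.48 to -0.21), the only one lower at an unadjusted p of 0.05, and was -0.60 from the BM mean in LP pool 3. Of 8 replacement variants, which are made outside S phase, 5 had a negative difference, with a median of -0.11, and 0 passed an unadjusted p of 0.05. H2az1 and Macroh2a1, the variants with the highest means, differed by -0.33 (95% interval -1.01 to 0.35) and 0.25 (95% interval -0.78 to 1.29).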

How the data were processed

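Sorted RAG2-GFP+ cells of 3 LP and 3 BM pools were measured on 1 array each. Per the labels' protocols, 4.5 to 47 ng of RNA were amplified before labelling. How much each pool gave was not used here. The deposited log2 values come from RMA, run in version 1.3.0.187 of Affymetrix Expression Console according to the tools that the submitters' processing notes name, and they were used as deposited. The platform's gene table gave 1 symbol to 21789 probe sets, several to 1621, and did not list 12146.

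LP pools were tested against BM pools with limma 3.58.1 in R 4.3.3, using lmFit and eBayes without trend, robust variances or block. Tests were two-sided, adjusted by Benjamini-Hochberg over all 35556 probe sets and given a threshold of 0.05. For 3 against 3 arrays the smallest two-sided exact p is 0.1, so no permutation test was made, and the 6 arrays limit the precision.

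The members and lists were chosen with earlier results of these data known. Named members are all H1 probe sets and, in each other class, the 5 with the smallest p and the 1 with the highest mean, and other members were named to account for them. Lists gave up to 4 genes without overlap, by smallest p, or else the 2 with the highest means. A listed gene was represented by its probe set of highest mean. Alternatives were a block for the pool number, only probe sets with a mean of at least 6, quantile normalization, median centring, trended and robust variances, array weights, other sets of probe sets and members, a threshold of 0.01, and left-out arrays. Classing a probe set by all its symbols was added after seeing the data. Figures were drawn with matplotlib 3.10.9.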

Additional observations from a re-analysis of the deposited data

How the results depend on the processing

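The count of 0 called members was the same under all alternatives that kept LP pool 3, and was 0 to 10 when each array was left out in turn, with 10 without LP pool 3. With estimated array weights, LP pool 3 weighed 0.19 and BM pool 2 weighed 2.67, and limma called 20 probe sets higher and 296 lower but 0 members. The count of members without overlap, 5, was 3 with a mean of at least 6, 8 with arrays centred on their medians, 11 without LP pools 1 and 2 and 5 to 22 when each array was left out. The shares of members in the first 3 of these settings, 8.33%, 14.3% and 19.6%, lay below the 18.5%, 20.8% and 51.3% of all probe sets. Median differences without LP pools 1 and 2 were 0.045 for H1, 0.0539 for H2A and -0.74 for H4. With a mean of at least 6 they were 0.073 for H1 and 0.73 for H2A. With 1 probe set per gene, and with members of exactly 1 symbol, they were -0.11 for H3, -0.12 for H4 and 0.14 for H2A, and classing probe sets by all symbols also gave 0.14 for H2A. When each array was left out in turn they were 0.16 to 0.56 for H1, 0.15 to 0.56 for H2A, -0.65 to 0.60 for H2B, 0.18 to 1.08 for H3 and -2.49 to -1.39 for H4. The direction of the H3 median therefore depended on the shared probe sets and that of the H2B median on single arrays. Of the single members' differences under the alternatives, 379 kept their direction and side of the threshold, 10, all without LP pool 3, passed it, and 9 changed sign, none of them called. With each array left out, H1f1 was -0.016 to 0.34 and H2ac15 -0.026 to 0.28, both lowest without BM pool 3, H1f5 was -0.16 to 0.14, and the shared H2B probe set of highest mean, at -0.01 with all arrays, was -0.79 to 0.69. With quantile normalization, H1f5 was 0.20 and that H2B probe set 0.13. The pool number pairs no samples by the labels: same-numbered pools deviated together with correlations of 0.087, 0.035 and 0.12, LP pool 2 did not correlate best with its own number, and with the number as a replicate block 0 members were called. Of the counts and class medians under the alternatives, 81 moved by less than the spread between pools, or for counts by less than the limit set, and 17 by more. A lone LP array was assumed to vary like the others.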
